A study of Mus musculus with 24 samples.

Results

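The 8 imprinted genes Meg3, Rian, Mirg, H19, Igf2r, Cdkn1c, Grb10 and Peg3 were followed in the liver of mice with and without lipin 1 in adipocytes. They were found by symbol among the 41388 features of the count tables, and all 8 were present. They were listed as imprinted genes detected in liver, and Meg3 was picked for its rise on a high-fat diet (HFD) in WT mice, so that its difference between the WT groups is a description here and not a finding. Bulk RNA sequencing had been run on livers of male mice on the C57BL/6J background that were 8 weeks old when they were put on a low-fat diet (LFD, 10% of kcal from fat) or an HFD (60% of kcal from fat). The labels give 16 weeks of feeding and the methods give 5 weeks. Every group carried the homozygous floxed Lpin1 allele. The Adn-Lpin1-/- mice also carried Cre recombinase under the adiponectin promoter, which is active in adipocytes, and the WT controls lacked Cre. Liver keeps its own Lpin1 in this model, so the genotype label could not be checked from these libraries. Each of the groups WT LFD, Adn-Lpin1-/- LFD, WT HFD and Adn-Lpin1-/- HFD was sequenced as 5 separate mice and as 1 pool labelled as holding those mice.

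An imprinted gene is expressed mainly from the copy inherited from one parent, and imprinted genes sit in clusters that share a control region methylated on one parental copy. Meg3, Rian and Mirg are noncoding RNAs transcribed from the maternal copy of the Dlk1-Dio3 cluster, in which Dlk1, Rtl1 and Dio3 are transcribed from the paternal copy. Meg3 is a long noncoding RNA, Rian is the host of small nucleolar RNAs and Mirg is the host of many miRNAs. H19, a long noncoding RNA of the maternal copy, lies beside Igf2, a fetal growth factor of the paternal copy. Igf2r encodes the receptor that clears the IGF2 protein, Cdkn1c encodes the cyclin-dependent kinase inhibitor p57, Grb10 encodes an adaptor that binds the insulin and IGF1 receptors, and Peg3 encodes a zinc finger protein of the paternal copy. Many of these genes are abundant in fetal liver and low in adult liver. The counts add up both parental copies, so imprinting itself was not measured.

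Total counts per mouse ranged from 36260187 to 81072794, and the group medians ran from 40777580 in WT LFD to 62306028 in Adn-Lpin1-/- HFD. Levels are given as CPM, the share of a library's counts on TMM-scaled library sizes. A gene was tested where 4 or more of the 20 mice passed 1 CPM, which left 13052 genes for edgeR's quasi-likelihood test. A gene was called where its Benjamini-Hochberg adjusted p was at or below 0.05. Hepatocyte markers summed to between 73376 and 117517 CPM in every mouse, whereas adipocyte markers summed to at most 4.32 CPM and skeletal muscle markers to at most 0.259 CPM. The 4.32 CPM was that of mouse 1 of WT LFD, and the other mice of this group were at 0.0782 to 0.112 CPM. Mouse 1 also had the highest Rian, Grb10 and Peg3 of its group. Mouse 5 of WT LFD stood apart in 3 of the 8 genes, with the lowest Meg3, the lowest Cdkn1c and the highest H19 of its group, and results on the LFD that rest on it are given with and without it. Fewer cells of a type and less RNA per cell cannot be told apart in bulk tissue, and the p-values measure the spread between separate mice.

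The promoter of Meg3 is shown because Meg3 is the gene that was picked for its difference between the diets. It is given as the 250 bases before the first annotated RNA base, at chr12:109540746-109540995 on the plus strand of GRCm38.p6, from RefSeq. Capitals mark the matches to the motifs searched.
Meg3 promoter: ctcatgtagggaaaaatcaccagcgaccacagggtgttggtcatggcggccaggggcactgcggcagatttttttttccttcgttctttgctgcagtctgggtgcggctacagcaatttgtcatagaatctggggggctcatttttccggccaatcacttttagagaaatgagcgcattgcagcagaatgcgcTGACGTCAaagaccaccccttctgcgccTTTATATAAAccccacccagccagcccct
The first run of capitals is the cyclic AMP response element TGACGTCA, which began 57 bases before the RNA start. The second run holds 2 overlapping matches to the TATA box TATAAA, 1 on each strand, and the match on the plus strand began 25 bases before the start. In all, 5 motifs were searched on both strands of the 300-base promoter windows. TGACGTCA was found in 1.79%, TATAAA in 13.6%, the E-box CACGTG in 7.15%, the YY1 motif GCCATNTT in 6.05% and the CTCF core in 0.0365% of the 32851 windows of all genes. Of the 6 members with a promoter in the RefSeq table, only Meg3 and Peg3 held TGACGTCA, and their 30-base windows are set below each other because both genes take part in the comparisons that follow.
Meg3: gcagaatgcgcTGACGTCAaagaccacccc
Peg3: actgactccgtTGACGTCAactccgtgcct
The Meg3 window lies at chr12:109540928-109540957 and the Peg3 window at chr7:6730579-6730608 on the minus strand, where the element began 178 bases before the RNA start. Igf2r held 2 E-boxes, and the promoters of Rian, Mirg and Grb10 held none of the 5 motifs. A match is a description of the letters and not a site of binding. H19 and Cdkn1c had no entry in the table.

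Several of the noncoding members carry mature miRNAs in their transcribed interval, 3 in Meg3, 6 in Rian, 26 in Mirg and 2 in H19 on the host's strand. Poly-A selected libraries of this kind do not measure mature miRNAs, and their sequences are shown to make clear what these hosts hold. The seed, bases 2 to 8, is in capitals. The miRNAs of Meg3, the pair from 1 hairpin of Rian, the only 2 hosted miRNAs that share a seed, both in Mirg, and the pair of H19 were:
mmu-miR-1906: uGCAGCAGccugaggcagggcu
mmu-miR-770-5p: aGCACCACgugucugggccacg
mmu-miR-770-3p: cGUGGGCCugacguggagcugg
mmu-miR-370-5p: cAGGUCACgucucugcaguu
mmu-miR-370-3p: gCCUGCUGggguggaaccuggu
mmu-miR-453: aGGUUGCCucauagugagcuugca
mmu-miR-496a-5p: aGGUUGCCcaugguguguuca
mmu-miR-675-5p: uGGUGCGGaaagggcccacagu
mmu-miR-675-3p: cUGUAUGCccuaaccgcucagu
The first 3 lie within Meg3 at chr12:109541001-109571726. The miR-370 pair lies in Rian at chr12:109603940-109661716, the next 2 in Mirg at chr12:109729764-109749460, and the miR-675 pair in H19 at chr7:142575529-142578143. Reads over bases that the annotation gives to a host exon and to a second feature could be assigned to neither. Such bases made up 1499 bases of the Meg3 exons, 478 of Rian, 433 of Mirg and 225 of H19, and all the features that overlapped them had 0 reads over the 20 mice. Of these, 1228 bases of Meg3 and stretches of 70 and 71 bases of H19 were shared with features of the opposite strand. Those are ambiguous only if counting ignored the strand, which is not given in the sources used here. Igf2r, Cdkn1c, Grb10 and Peg3 had no exon overlap.

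Igf2r was the only abundant member. Per kilobase of exon, its median level over the 20 mice was 5.18 RPKM and its lowest mouse, at 4.47 RPKM, lay above the highest mouse of every other member. Cdkn1c followed at a median of 0.841 RPKM, Peg3 at 0.692, Grb10 at 0.362, H19 at 0.101, Meg3 at 0.0702, Rian at 0.0274 and Mirg at 0.00455 RPKM. Below Igf2r, each member overlapped the next in this order. On library totals before TMM scaling, the scale of the limit for testing, over 1 CPM was reached in all 20 mice by Igf2r, Grb10 and Peg3, in 17 by Cdkn1c, in 15 by Meg3 and in 1 by Rian. H19 and Mirg did not reach it in any mouse. Hence 5 of the 8 members entered the tests, with Meg3 and Cdkn1c nearest above the limit and Rian nearest below it. Rian, Mirg and H19 are described by their reads and by a fit without that limit.

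**Figure D1:**
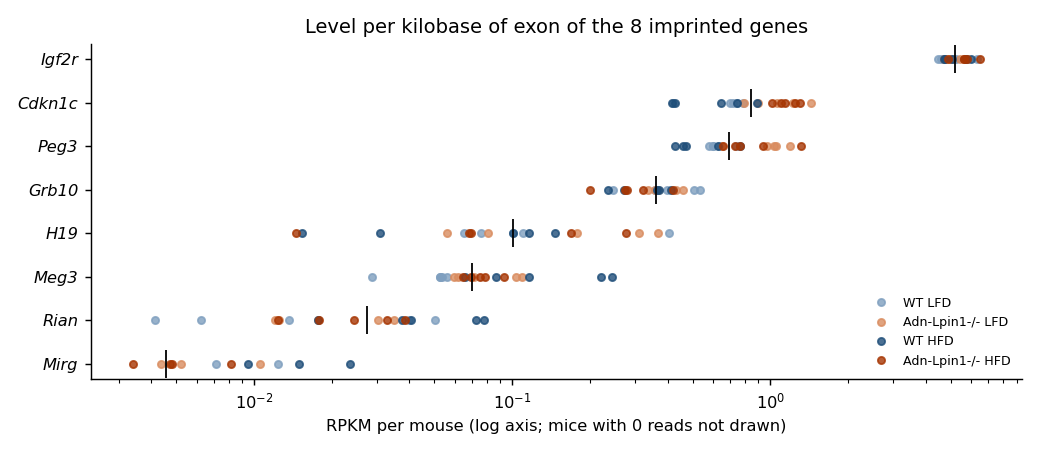
RPKM of the 8 genes in each of the 20 mice on a log axis, coloured by group, with a black bar at the median. Igf2r, at a median of 5.18 RPKM, is separated from the other 7 genes, whose ranges overlap from one to the next.

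In the Dlk1-Dio3 cluster, Meg3 differed mainly in the WT HFD mice, where some but not all livers were high. Meg3 was at 0.952, 0.967, 0.953, 1.02 and 0.518 CPM in WT LFD (21 to 43 reads). It was at 1.57, 2.11, 4.43, 1.19 and 3.99 CPM in WT HFD (62 to 256 reads). Each WT HFD mouse lay above each WT LFD mouse, and mice 3 and 5 of WT HFD were well above the other 3. The fitted log2 fold change between the diets in WT was 1.59 (SE 0.32), a 3.02-fold higher level, and 1.45 without mouse 5 of WT LFD. This is the contrast that picked Meg3, so no test is given. Over all tested genes, 1.10% were called in it, and nothing is read from that share for the members.

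In Adn-Lpin1-/- mice, the spread of Meg3 on the HFD was smaller (SD 0.194 CPM against 1.46 in WT). It was at 1.29, 1.97, 1.87, 1.08 and 1.11 CPM in Adn-Lpin1-/- LFD and at 1.17, 1.25, 1.36, 1.42 and 1.68 CPM in Adn-Lpin1-/- HFD. The groups overlapped throughout their range. The log2 fold change between the diets, which shares no mouse with the contrast that picked the gene, was -0.09 (SE 0.30, 95% interval -0.72 to 0.54, adjusted p = 0.919 in edgeR). Its sign was not settled, since it turned to 0.04 without mouse 2 of Adn-Lpin1-/- LFD, to 0.02 without mouse 3 of that group, and to 0.02 with the pools as sixth libraries in edgeR.

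The genotype comparisons of Meg3 reuse the WT mice from which it was chosen and are given without a test. On the LFD, all 5 Adn-Lpin1-/- mice lay above all 5 WT mice, with a log2 fold change of 0.73 (SE 0.32), which was 0.59 without mouse 5 of WT LFD. On the HFD, all Adn-Lpin1-/- mice lay below mice 2, 3 and 5 of WT and overlapped the other two, and the log2 fold change was -0.95 (SE 0.30). Without mouse 3 of WT HFD, which had the highest Meg3 of all mice, it was -0.70. The diet-by-genotype interaction was -1.68 (SE 0.44).

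The pools gave 1.39 CPM of Meg3 for WT and 1.05 for Adn-Lpin1-/- mice on the LFD, and 2.83 for WT and 1.62 for Adn-Lpin1-/- mice on the HFD. The WT LFD pool, with 38 reads and a 95% Poisson interval of 0.986 to 1.91 CPM, lay above all 5 of its mice, and the Adn-Lpin1-/- LFD pool lay below all 5 of its own. Such intervals cover counting error only.

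**Figure D2:**
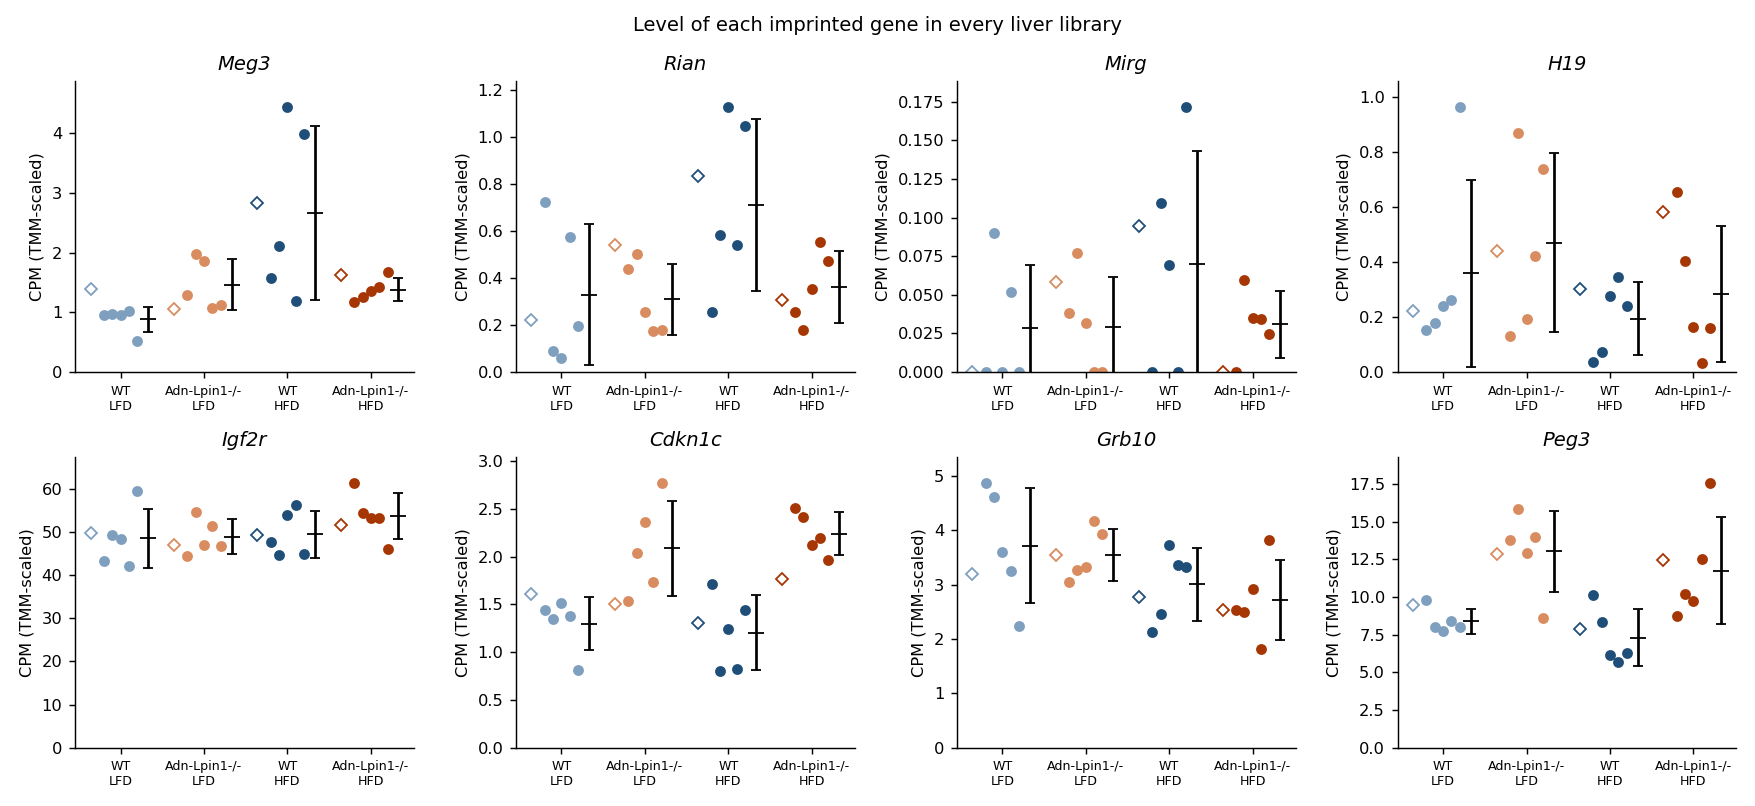
CPM of each of the 8 genes in every library, by group. Filled circles are the 5 single mice in order of their number, open diamonds are the pool of the group, and the bar beside them is the mean ± SD of the 5 mice, drawn down to 0 at most. Meg3 and Rian were highest in mice 3 and 5 of WT HFD, and all Adn-Lpin1-/- mice lay above all WT mice for Cdkn1c on both diets.

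Rian, which is transcribed downstream of Meg3 on the same strand, was also highest in mice 3 and 5 of WT HFD. It was at 0.721, 0.0900, 0.0596, 0.573 and 0.197 CPM in WT LFD and at 0.255, 0.582, 1.12, 0.539 and 1.04 CPM in WT HFD. Unlike Meg3, the WT groups of Rian overlapped, and mouse 1 of WT LFD lay above 3 of the WT HFD mice. Its log2 fold change between the diets in WT was 1.13 (SE 0.52) in the fit without a limit on low counts, given without a test.

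Rian was at 0.436, 0.501, 0.255, 0.173 and 0.180 CPM in Adn-Lpin1-/- LFD. It was at 0.256, 0.179, 0.352, 0.552 and 0.472 CPM in Adn-Lpin1-/- HFD. These groups overlapped, and their log2 fold change was 0.23 (SE 0.52, 95% interval -0.83 to 1.29, adjusted p = 0.949). The genotype differences were -0.09 (SE 0.54, adjusted p = 1) on the LFD and -0.98 (SE 0.50, adjusted p = 0.278) on the HFD. None was called, at 2 to 65 reads per mouse. In that fit, 4.87% of all genes were called between genotypes on the LFD, 6.53% on the HFD, and 0.787% between diets in Adn-Lpin1-/- mice.

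Mirg, the miRNA host at the far end of the maternal transcripts, had 45 reads over the 20 mice. It had 0 reads in 8 mice. A count of 0 allows up to 3 reads, which is 0.0352 to 0.0893 CPM over the library sizes of all 20 mice. The highest values were 10 and 6 reads in mice 5 and 2 of WT HFD, whereas mice 1 and 4 of that group had 0. No fold change and no difference between groups is read from these counts.

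Of the paternal genes of the cluster, Dlk1 and Rtl1 were at or near 0, and Dio3 was low and under the limit for testing. Dlk1, which encodes a membrane protein of fetal liver, had 37 reads over the 20 mice, and Rtl1, which is needed in placenta, had 14. Begain, at the edge of the cluster, had 36 reads. Dio3, the enzyme that inactivates thyroid hormone, was at 0.2001 ± 0.228 and 0.144 ± 0.0970 CPM on the LFD and at 0.296 ± 0.1995 and 0.141 ± 0.107 CPM on the HFD for WT and Adn-Lpin1-/- mice (mean ± SD, n = 5). Its group ranges overlapped. Over the 96 features from Dlk1 to Dio3, 12 had any read, and Meg3 held 1826 of the 3669 reads. A feature with no symbol beside Dio3 held 1050, and the 59 miRNA features had 11 reads in all. These reads are not divided by length. The exons of Meg3 are 18.1 kb long, whereas the whole Dio3 gene lies at chr12:110279068-110281097. The reads therefore do not rank the genes of the cluster per kilobase.

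Across the 20 mice, Meg3 and Rian had a Pearson r of 0.64, and 0.47 after removal of the group means. For Meg3 and Mirg the values were 0.64 and 0.69. These are descriptions over 20 mice that share the scaling of their libraries, and the counts of Rian and Mirg are sparse. Markers of mesothelium, the lining of the liver surface, also differed between the WT groups. The 4 markers summed to between 0.0986 and 1.90 CPM in WT LFD and to between 2.68 and 5.04 CPM in WT HFD. They ran from 0.754 to 11.05 CPM in Adn-Lpin1-/- LFD and from 1.39 to 3.84 CPM in Adn-Lpin1-/- HFD. Of the 4, 2 were tested, and edgeR called 0 in any contrast. Both had an unadjusted edgeR p under 0.05 between the diets in WT, between the genotypes on the LFD and for the interaction. Their median log2 fold changes there were 2.00, 1.99 and -2.54. Neither did between genotypes on the HFD or between diets in Adn-Lpin1-/- mice. The r of the sum of the 4 markers with Meg3 was 0.54, and 0.16 with the group means removed. The 2 mice with the highest Meg3 were at 2.73 and 3.05 CPM of this sum, within the range of the other HFD mice. The part of these cells in the Meg3 values was not tested.

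**Figure D3:**
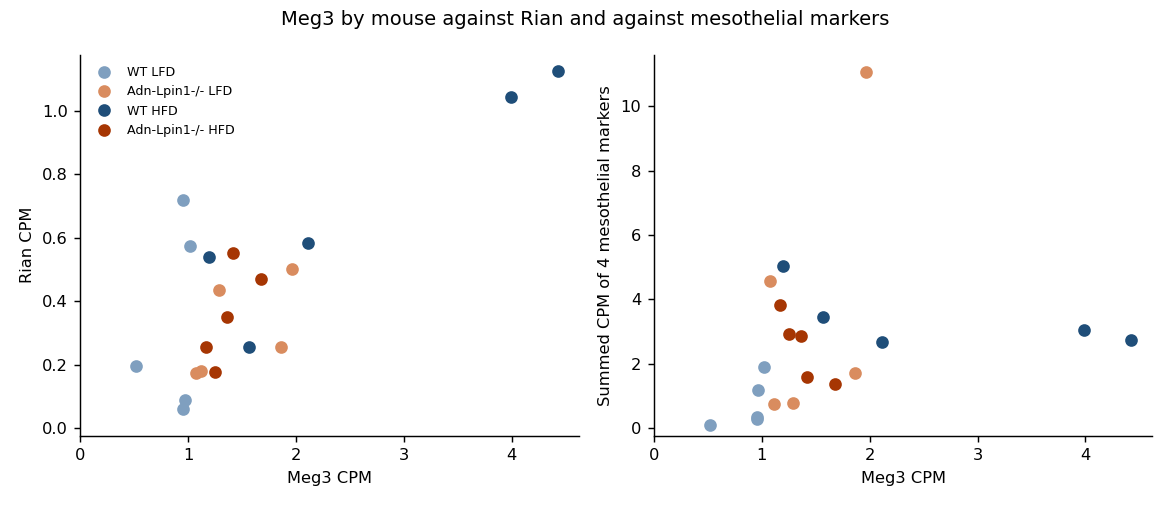
Meg3 CPM of each of the 20 mice against Rian CPM (left) and against the summed CPM of 4 mesothelial markers (right), coloured by group. Mice 3 and 5 of WT HFD are at the top right for Rian, at 1.12 and 1.04 CPM, whereas the mouse with the highest mesothelial sum, 11.05 CPM in Adn-Lpin1-/- LFD, had 1.97 CPM of Meg3.

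H19 varied from mouse to mouse more than it did between groups. It was at 0.154, 0.180, 0.238, 0.261 and 0.961 CPM in WT LFD, and at 0.133, 0.868, 0.191, 0.423 and 0.738 CPM in Adn-Lpin1-/- LFD. It was at 0.0365, 0.0728, 0.277, 0.346 and 0.240 CPM in WT HFD, and at 0.656, 0.403, 0.164, 0.0345 and 0.161 CPM in Adn-Lpin1-/- HFD. Mouse 5 of WT LFD, mice 2 and 5 of Adn-Lpin1-/- LFD and mouse 1 of Adn-Lpin1-/- HFD were high, and all groups overlapped.

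Without the limit on low counts, the log2 fold change of H19 between genotypes was 0.39 (SE 0.65, adjusted p = 0.835 in edgeR) on the LFD and 0.52 (SE 0.67, not called) on the HFD. Between diets it was -0.73 (SE 0.64, adjusted p = 0.690) in Adn-Lpin1-/- mice. In WT it was -0.87 (SE 0.68), given without a test. Without mouse 5 of WT LFD, these values were 1.18 (SE 0.68, adjusted p = 0.366) between genotypes on the LFD and -0.08 (SE 0.70) between diets in WT. None of the tested contrasts was called, at 2 to 45 reads per mouse.

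H19 was low where Cela1, an elastase gene listed as a marker of exocrine pancreas, was high. Over the 20 mice its r with the sum of the 4 exocrine markers was -0.71, and -0.80 with the group means removed. The latter was the largest in size of any member with any marker sum. With the group means removed, the exocrine sum also had an r of -0.57 with Igf2r and 0.53 with Peg3. That sum, at 10.2 to 39.0 CPM, was almost wholly Cela1, which had 25444 reads over the 20 mice, whereas the defining markers Prss2, Cpa1 and Ctrb1 had 4, 19 and 76 reads. Cela1 was called lower in Adn-Lpin1-/- mice on the LFD (log2 fold change -0.91), a call lost in 12 of the 20 fits without a mouse and under 5 of the 12 other alternatives, with adjusted p up to 0.118. The part of Cela1 in the H19 values was not tested. Igf2, the neighbour of H19, had 605 reads over the 20 mice and ranged from 0.262 to 0.976 CPM, and Ins2 had none.

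Igf2r, the receptor that takes IGF2 and mannose 6-phosphate-tagged enzymes to lysosomes, differed little between the groups, and they overlapped. On the LFD it was at 48.6 ± 6.85 CPM in WT and 48.9 ± 4.06 in Adn-Lpin1-/- mice, and on the HFD at 49.5 ± 5.41 and 53.7 ± 5.40 CPM (mean ± SD, n = 5). The highest mouse was at 61.3 CPM and the lowest at 42.2 CPM. The 95% interval of the log2 fold change between genotypes was -0.19 to 0.21 on the LFD (adjusted p = 0.970 in edgeR) and -0.08 to 0.32 on the HFD (adjusted p = 0.416). Between diets in Adn-Lpin1-/- mice it was -0.06 to 0.33 (adjusted p = 0.523). These intervals are the narrowest of the members, at 1619 to 4537 reads per mouse.

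The neighbours of Igf2r at its cluster on chromosome 17 did not move as 1 block. Slc22a3, an organic cation transporter, rose on the LFD from 4.68 ± 1.10 CPM in WT to 9.86 ± 1.96 in Adn-Lpin1-/- mice, with no overlap between the groups. Its log2 fold change was 1.07 (SE 0.21, adjusted p = 0.00256). On the HFD it was at 4.43 ± 1.37 and 6.53 ± 0.957 CPM, which did not pass the test (log2 fold change 0.56, SE 0.21, adjusted p = 0.0667), and the diet-by-genotype interaction was not called either (-0.51, SE 0.30, adjusted p = 0.771). Airn, the paternal antisense RNA that silences Igf2r, was at 0.742 ± 0.140 and 0.855 ± 0.353 CPM on the LFD and at 0.479 ± 0.115 and 0.898 ± 0.429 CPM on the HFD in WT and Adn-Lpin1-/- mice, and neither difference passed (adjusted p = 0.754 and 0.0805). Airn runs antisense to Igf2r, and without knowledge of the counting strand their reads in shared bases may not be told apart. Slc22a2, a second cation transporter, was not called on either diet (adjusted p = 0.601 and 0.524).

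Cdkn1c was higher in Adn-Lpin1-/- livers on both diets, with no overlap between the genotypes. On the LFD it was at 1.44, 1.35, 1.52, 1.38 and 0.814 CPM in WT mice and at 1.53, 2.04, 2.36, 1.73 and 2.77 CPM in Adn-Lpin1-/- mice. On the HFD it was at 1.71, 0.801, 1.24, 0.828 and 1.44 CPM in WT mice and at 2.51, 2.42, 2.12, 2.19 and 1.96 CPM in Adn-Lpin1-/- mice. The nearest mice of the 2 genotypes were 1.52 and 1.53 CPM on the LFD and 1.71 and 1.96 CPM on the HFD.

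The log2 fold change of Cdkn1c was 0.89 on the HFD (SE 0.22, adjusted p = 0.00862 in edgeR), a 1.85-fold higher level, and the call was held without any single mouse and under each of the 12 other alternatives. On the LFD it was 0.69 (SE 0.22, adjusted p = 0.0422), a 1.61-fold higher level, and that call was near the threshold. It was lost in 8 of the 20 fits that each left out a mouse, among them the fit without mouse 5 of WT LFD (log2 fold change 0.56, adjusted p = 0.0907), and under 8 of the 12 other alternatives, with adjusted p up to 0.202. A two-sided exact permutation test of the log2 CPM of 5 mice against 5 gave p = 0.00794 on each diet, which is the smallest it can give and is not adjusted over the 22 tests of this kind. The diet-by-genotype interaction of Cdkn1c was not called (0.20, SE 0.31, 95% interval -0.44 to 0.85, adjusted p = 0.939).

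The pools did not show the Cdkn1c difference of the single mice on the LFD. On the LFD they gave 1.61 CPM for WT and 1.51 for Adn-Lpin1-/- mice, and on the HFD 1.31 and 1.76 CPM. The Adn-Lpin1-/- pools lay below all 5 of their own mice on both diets, and the WT LFD pool lay above all of its own. Diet made no called difference to Cdkn1c in Adn-Lpin1-/- mice (log2 fold change 0.10, SE 0.21, adjusted p = 0.865), and in WT the value was -0.11 (SE 0.22).

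In the Kcnq1 cluster on chromosome 7, to which Cdkn1c belongs, Kcnq1ot1 was lower and the other called genes were higher in Adn-Lpin1-/- mice on the LFD. Kcnq1ot1, the paternal noncoding RNA of the cluster, fell from 17.4 ± 1.72 to 11.6 ± 1.58 CPM (log2 fold change -0.58, SE 0.14, adjusted p = 0.00776), and the groups did not overlap. With the trend on GC content removed together with a replicate block, its adjusted p was 0.0645. On the HFD it was at 15.1 ± 3.05 and 13.4 ± 2.48 CPM, which was not called (adjusted p = 0.395). The part of Kcnq1ot1 in the levels of the other genes of the cluster was not tested.

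Kcnq1, a potassium channel whose gene Kcnq1ot1 crosses in antisense, rose on both diets. It was at 0.553 ± 0.0968 and 1.06 ± 0.348 CPM on the LFD (log2 fold change 0.95, SE 0.23, adjusted p = 0.0106) and at 0.553 ± 0.118 and 1.06 ± 0.137 CPM on the HFD (log2 fold change 0.94, SE 0.23, adjusted p = 0.00817). Both calls held in all 20 fits without a mouse and under the 12 other alternatives. The highest WT mouse was at 0.726 CPM of Kcnq1, so this gene passed the limit for testing only through Adn-Lpin1-/- mice, where it was high. Whether counting used the strand is not given in the sources used here, so reads of Kcnq1 and Kcnq1ot1 in shared bases may not be told apart.

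Cd81, a tetraspanin of many cell types, rose from 243 ± 24.7 to 301 ± 36.7 CPM on the LFD (adjusted p = 0.0424, lost in 8 of the 20 fits without a mouse and under 6 of the 12 other alternatives, with adjusted p up to 0.161). On the HFD it rose from 249 ± 26.1 to 323 ± 37.8 CPM (adjusted p = 0.0130). Tssc4 rose on the LFD from 11.2 ± 0.488 to 13.6 ± 0.690 CPM (adjusted p = 0.00666, and 0.347 at most with the GC trend removed), and Osbpl5, an oxysterol-binding related protein, on the HFD from 4.69 ± 1.82 to 10.6 ± 5.26 CPM (adjusted p = 0.0294, lost in 6 of the 20 fits without a mouse, with adjusted p up to 0.0955). Slc22a18 and Nap1l4 were called on neither diet, and Phlda2, with 157 reads over the 20 mice, was under the limit for testing.

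**Figure D4:**
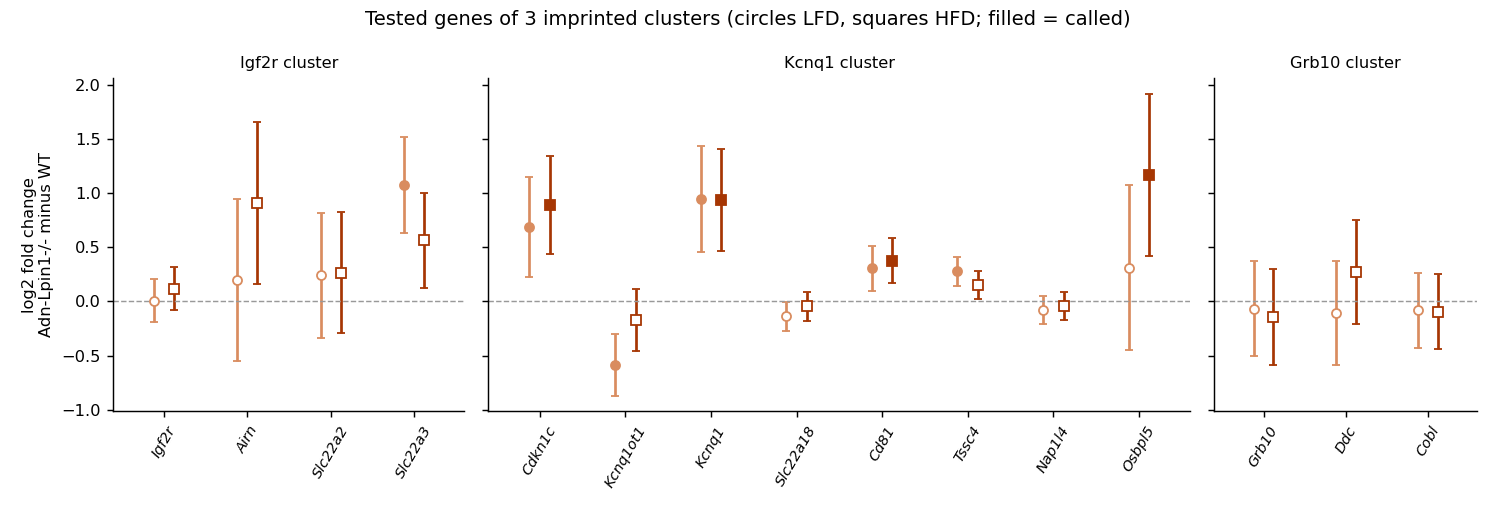
Fitted log2 fold change of Adn-Lpin1-/- over WT livers with its 95% interval for tested genes of 3 imprinted clusters, on the LFD (circles) and the HFD (squares). Tnfrsf23, a tested gene of the Kcnq1 cluster, is not drawn. Filled symbols were called. Cdkn1c and Kcnq1 were higher on both diets and Kcnq1ot1 was lower on the LFD, whereas Igf2r and Grb10 lay near 0.

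Endothelial markers moved in the same direction as Cdkn1c. Of the 6 markers of sinusoidal endothelium, 2 were called higher in Adn-Lpin1-/- mice on the LFD and 4 on the HFD. Of the 20 fits without a mouse, the LFD call was lost in 0 for Pecam1 and 3 for Lyve1, and the HFD call in 0 for Stab2, 6 for Lyve1, 7 for Pecam1 and 15 for Oit3, which also lost it under 6 of the 12 other alternatives. The sums of the 6 markers ran from 71.2 to 123 CPM in WT and from 97.995 to 191 CPM in Adn-Lpin1-/- mice on the LFD. On the HFD they ran from 88.3 to 132 CPM in WT and from 138 to 159 CPM in Adn-Lpin1-/- mice, without overlap. The r of Cdkn1c with this sum was 0.70 over the 20 mice, and 0.37 with the group means removed. The 5 Kupffer cell markers, of which 4 were called higher on the HFD (80%) and 0 on the LFD, had an r of 0.59, and 0.33 with the group means removed. Of the 8 stellate cell markers, 1 was called higher on each diet (12.5%), which is below the share of all tested genes. Of the 6 hepatocyte markers, 3 were called lower on the HFD (50%) and 0 were called on the LFD. Of the 4 bile duct markers, none was called by edgeR on either diet (2 at an unadjusted p under 0.05 on the LFD, 0 on the HFD). Lymphocyte markers, at sums of 1.01 to 3.75 CPM, were under the limit for testing, and their r with Cdkn1c was 0.49, and 0.55 with the group means removed. The part of these cells in the Cdkn1c values was not tested.

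Grb10, the adaptor that dampens insulin and IGF1 signalling, was not called in any contrast. It was at 4.86, 4.61, 3.60, 3.26 and 2.24 CPM in WT LFD and at 3.05, 3.26, 3.33, 4.17 and 3.93 CPM in Adn-Lpin1-/- LFD. It was at 2.13, 2.46, 3.73, 3.37 and 3.32 CPM in WT HFD and at 2.53, 2.49, 2.92, 1.81 and 3.81 CPM in Adn-Lpin1-/- HFD. All groups overlapped, and WT LFD alone ran from 2.24 to 4.86 CPM.

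The log2 fold change of Grb10 between genotypes was -0.07 (SE 0.21, adjusted p = 0.873 in edgeR) on the LFD and -0.14 (SE 0.21, adjusted p = 0.672) on the HFD. Between diets it was -0.38 in Adn-Lpin1-/- mice (SE 0.21, 95% interval -0.82 to 0.05, adjusted p = 0.383), and -0.31 (SE 0.21) in WT without a test. With voom and the pools as sixth libraries, the value in Adn-Lpin1-/- mice was -0.43 and was called (adjusted p = 0.0408). Its neighbours Ddc, the enzyme aromatic L-amino acid decarboxylase, and Cobl, an actin nucleator, were not called between genotypes on either diet. Cobl had unadjusted p under 0.05 between the diets in Adn-Lpin1-/- mice, with 23.2 ± 2.77 CPM on the LFD and 16.1 ± 4.75 on the HFD, but did not pass the test (log2 fold change -0.52, SE 0.17, adjusted p = 0.105).

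Peg3 was higher in Adn-Lpin1-/- livers on both diets, with a few mice of the 2 genotypes overlapping. On the LFD it was at 9.80, 8.01, 7.71, 8.39 and 7.99 CPM in WT mice and at 13.8, 15.8, 12.9, 13.98 and 8.64 CPM in Adn-Lpin1-/- mice. On the HFD it was at 10.1, 8.34, 6.14, 5.70 and 6.27 CPM in WT mice and at 8.72, 10.2, 9.71, 12.5 and 17.5 CPM in Adn-Lpin1-/- mice. Only mouse 5 of Adn-Lpin1-/- LFD fell among the WT mice on the LFD, and on the HFD mouse 1 of WT lay above 2 of the Adn-Lpin1-/- mice.

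The log2 fold change of Peg3 was 0.64 on the LFD (SE 0.19, adjusted p = 0.0309 in edgeR) and 0.68 on the HFD (SE 0.19, adjusted p = 0.0177), a 1.55-fold and a 1.61-fold higher level. The LFD call was lost in 8 of the 20 fits without a mouse, with the value between 0.56 and 0.75 and adjusted p up to 0.0857, and in the fit without mouse 5 of WT LFD adjusted p was 0.0523. The HFD call was lost only without mouse 5 of Adn-Lpin1-/- HFD, the mouse with the most Peg3 (0.49, adjusted p = 0.0522). Two-sided exact permutation tests gave an unadjusted p = 0.0159 on the LFD and p = 0.0238 on the HFD. The interaction of Peg3 was not called (0.05, SE 0.27, 95% interval -0.51 to 0.61, adjusted p = 0.988).

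The pools followed the Peg3 difference, at 9.50 and 12.9 CPM on the LFD and 7.91 and 12.5 CPM on the HFD in WT and Adn-Lpin1-/- mice. Between diets in Adn-Lpin1-/- mice the log2 fold change was -0.15 (SE 0.19, adjusted p = 0.747), and in WT it was -0.20 (SE 0.19). The r of Peg3 with the endothelial sum was 0.29, and -0.34 with the group means removed. Of its neighbours, Usp29 had no read in any mouse, Zim1 had 45 reads over the 20 mice, and Zfp264 was not matched.

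**Figure D5:**
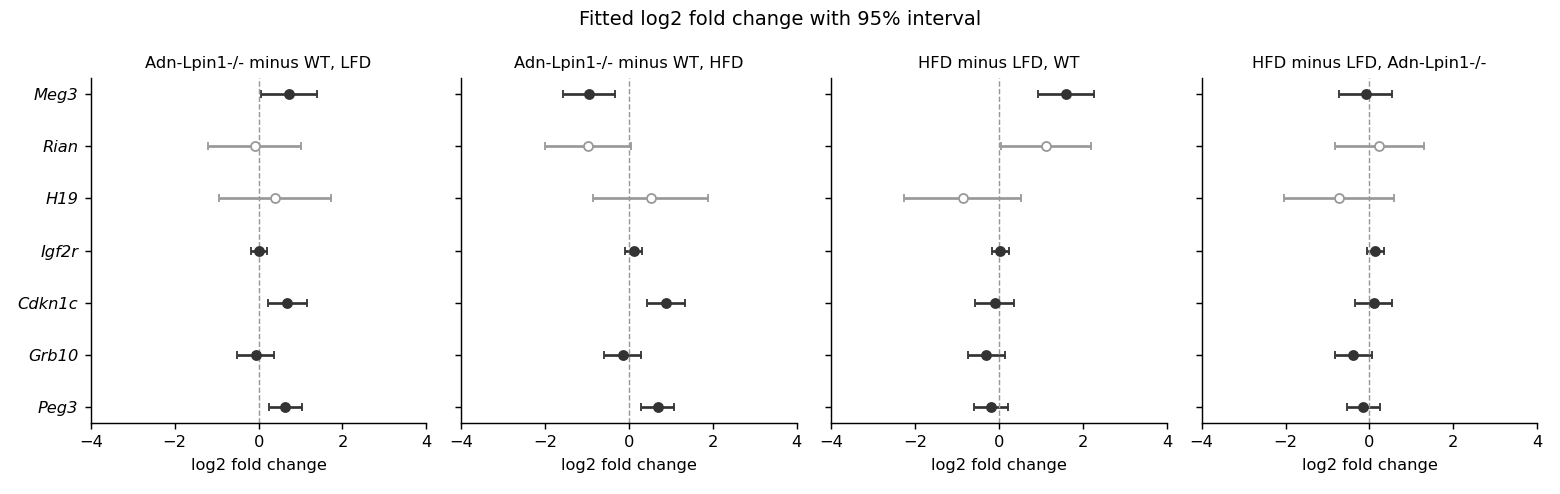
Fitted log2 fold change of each gene with its 95% interval in 4 contrasts. Filled black symbols are the 5 genes above the limit for testing and open grey symbols Rian and H19 below it, from the fit without that limit. Cdkn1c and Peg3 lay above 0 between the genotypes on both diets. The interval of Meg3 between the diets in Adn-Lpin1-/- mice was -0.72 to 0.54. Since Meg3 was picked from the diet contrast in WT, its intervals in the contrasts with WT mice are a description and not a test.

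Meg3 is left out of the counts that involve WT mice. By count, 2 of the other 4 tested members, Cdkn1c and Peg3, were called higher between genotypes on the LFD, where 14.4% of all tested genes were called. The same 2 were called higher on the HFD, where 18.6% of all tested genes were. Between diets in Adn-Lpin1-/- mice, edgeR called 0 of the 5 tested members, Meg3 included, and 0 had an unadjusted p under 0.05, where 2.46% of all tested genes were called. For the diet-by-genotype interaction, edgeR called 0 of the 13052 genes (0%), with 938 at an unadjusted p under 0.05. DESeq2 called 30 genes in it, edgeR with the pools 4 and voom with the pools 189, and none of these fits called Igf2r, Cdkn1c, Grb10 or Peg3.

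The wider list held 68 other imprinted genes, of which 64 were matched and 37 tested. Between genotypes on the LFD, 6 were called higher and 2 lower, with a median log2 fold change of 0.14 beside 0.01 over all tested genes. On the HFD, 6 were called higher and 3 lower, with a median of 0.15 beside 0.00. As a share, 21.6% and 24.3% of the 37 were called, beside the 14.4% and 18.6% of all genes. Among the called genes, Kcnq1 and Tnfrsf23 passed the limit for testing only through Adn-Lpin1-/- mice, so these shares are a description. Between diets in Adn-Lpin1-/- mice and for the interaction, edgeR called 0 of the 37, with 4 and 2 at an unadjusted p under 0.05, and DESeq2 called 1 between the diets.

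Ube3a and Impact were called on both diets without losing the call in any alternative. Ube3a, a ubiquitin ligase that is imprinted in neurons, fell from 27.4 ± 1.24 to 19.8 ± 1.37 CPM on the LFD (log2 fold change -0.47, SE 0.08, adjusted p = 0.000589) and from 29.0 ± 2.47 to 19.2 ± 2.16 CPM on the HFD (-0.60, SE 0.08, adjusted p = 5.47e-05). Impact, a regulator of translation under amino acid shortage, rose from 10.0 ± 0.886 to 14.3 ± 1.38 CPM on the LFD (0.52, SE 0.10, adjusted p = 0.00149) and from 8.88 ± 1.00 to 12.6 ± 1.34 CPM on the HFD (0.50, SE 0.10, adjusted p = 0.00179). For both genes, the genotypes did not overlap on either diet.

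Besides these genes and Kcnq1 and Cd81, each called gene of the wider list was called on 1 diet. Dcn, the matrix proteoglycan decorin, rose on the LFD (log2 fold change 0.57, SE 0.16, adjusted p = 0.0256, lost in 3 of the 20 fits without a mouse). On the HFD, Tnfrsf23, a decoy receptor for TRAIL whose gene lies in the Kcnq1 cluster, rose (1.43, SE 0.33, adjusted p = 0.00692), as did Nnat, a membrane proteolipid (0.88, SE 0.25, adjusted p = 0.0208, lost in 2 of the 20 fits without a mouse). The highest WT mouse was at 0.711 CPM of Tnfrsf23, so this gene passed the limit for testing only through Adn-Lpin1-/- mice. Slc38a4, an amino acid transporter of hepatocytes, fell from 1289 ± 90.0 to 1015 ± 170 CPM (-0.34, SE 0.09, adjusted p = 0.0138, and 0.0543 at most under the other alternatives), and Inpp5f, a phosphoinositide phosphatase, fell by 0.21 on the log2 scale (SE 0.06, adjusted p = 0.0296, lost in 3 of the 20 fits without a mouse and under 2 of the 12 other alternatives, with adjusted p up to 0.375). The interaction was tested for each of these genes and was not called for any.

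Genes of insulin-like growth factor signalling were described from a list of 22 genes, 17 of them tested besides the members. The list holds Igf2r and Grb10, and it also holds the cyclin-dependent kinase inhibitors Cdkn1a, Cdkn1b and Cdkn1c. Of the 17, 2 were called higher and 5 lower in Adn-Lpin1-/- mice on the LFD, and 2 higher and 6 lower on the HFD, with median log2 fold changes of 0.00 and -0.24. Cdkn1a was among those called higher on each diet. As a share, 41.2% and 47.1% of the 17 were called, beside 14.4% and 18.6% of all tested genes. Between diets in Adn-Lpin1-/- mice edgeR called 0, with 3 at an unadjusted p under 0.05. Igf1, the main growth factor made by liver, fell from 722 ± 55.0 to 499.6 ± 98.5 CPM on the HFD (log2 fold change -0.53, SE 0.13, adjusted p = 0.00772, and 0.0512 with the GC trend removed together with the block). Ghr, the growth hormone receptor, fell on the LFD (-0.43, SE 0.07, adjusted p = 0.000436), as did Igfals, which carries IGF1 in plasma (-0.68, SE 0.14, adjusted p = 0.00367). Ghr was also called lower on the HFD, at 521 ± 48.9 CPM in WT and 443 ± 30.6 in Adn-Lpin1-/- mice. That call was lost in 2 of the 20 fits without a mouse and under 6 of the 12 other alternatives. Igfbp2, an IGF-binding protein, fell from 414 ± 45.4 to 194 ± 70.8 CPM on the HFD (-1.09, SE 0.26, adjusted p = 0.00839). It was also called lower on the LFD, from 510 ± 91.0 to 264 ± 108 CPM, a call lost in 2 of the 20 fits without a mouse. Insr, the insulin receptor, fell on both diets (-0.42 and -0.43, SE 0.08 each, adjusted p = 0.00202 and 0.00138).

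Cdkn1a, the relative of Cdkn1c that encodes the inhibitor p21, rose further than Cdkn1c. It was at 1.63 ± 0.765 and 8.37 ± 2.62 CPM on the LFD (log2 fold change 2.35, SE 0.48, adjusted p = 0.00301) and at 2.76 ± 1.28 and 9.83 ± 7.67 CPM on the HFD (1.83, SE 0.45, adjusted p = 0.00958) in WT and Adn-Lpin1-/- mice. The network of imprinted growth genes, of which 5 were tested besides the members, had 1 call on each diet, Dcn on the LFD and Slc38a4 on the HFD. That was 20% of the 5 on each diet, beside 14.4% and 18.6% of all tested genes. Of the fetal liver genes, 3 were tested, and only Igf2bp2, an RNA-binding protein, was called (HFD, 1.15, SE 0.30, adjusted p = 0.0129), where 18.6% of all tested genes were called.

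Each tested member was set beside all other tested genes by Pearson's r of log2 CPM over the 20 mice with the group means removed. For Meg3 the highest values were 0.87 for Mir17hg, 0.83 for 4930594M22Rik, 0.77 for Trmo, 0.76 for Gm26819 and 0.76 for Moxd1. For Cdkn1c they were 0.77 for Cers4, 0.74 for Cers5, 0.74 for Apold1, 0.73 for Rasip1 and 0.69 for Dimt1. Peg3 was nearest to Zfp292 (0.88), Slc30a3 (0.82), Map3k21 (0.79), Tmem87a (0.79) and Mga (0.77). Igf2r was nearest to Cnot1 (0.93), Tsc2 (0.91), Ptprf (0.89), Notch2 (0.88) and Dag1 (0.88), and Grb10 to Nrep (0.78), Prpf6 (0.78), Trim47 (0.76), Eif4e (0.75) and Abhd17b (0.75). With the group means kept, r with Peg3 was -0.43 for Zfp292, 0.04 for Slc30a3 and -0.36 for Mga. It was -0.06 for Gm26819 and 0.02 for Moxd1 with Meg3, and 0.06 for Dimt1 with Cdkn1c. The other genes named here ran from 0.26 to 0.90. No member was among the nearest 5 genes of another member.

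Between the members themselves, Cdkn1c and Peg3 had an r of 0.53 over the 20 mice but -0.12 with the group means removed, so that the likeness lay in the groups and not within them. H19 and Igf2r had an r of 0.49 and 0.65, and H19 and Peg3 of -0.13 and -0.55, with the group means kept and removed. These values are over 20 mice whose libraries share their scaling, and they are given as a description.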

How the data were processed

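The authors aligned reads to GRCm38 with STAR 2.5.1a, counted uniquely aligned unambiguous reads on Ensembl genes with featureCounts 1.4.6-p5, and deposited the raw count, CPM and RPKM of each gene for each of 24 poly-A libraries. Every value here was computed from the deposited counts. The deposited CPM and RPKM were read for their range only. Symbols matched 40254 of 41388 features (97.3%), and exon lengths and gene coordinates were those deposited with the counts. Gene types and GC content came from GENCODE M21 on GRCm38. RPKM uses the union of exons.

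The 355 rRNA genes were left out (0.265% to 0.465% of counts). The 20 single-mouse libraries were fitted with edgeR 4.0.16 in R 4.3.3 (TMM scaling, 4 group means in 1 fit, quasi-likelihood test, Benjamini-Hochberg over 13052 genes, threshold 0.05), after tests on simulated counts. Log2 CPM used a prior count of 2. Pools repeat the same mice and were left out. The alternatives were DESeq2's size factors, library totals without TMM, DESeq2 1.42.0, voom of limma 3.58.1, the pools as sixth libraries with edgeR and with voom, edgeR's default limit on low counts or none, only the groups compared, a replicate block, and fits that each dropped 1 mouse. Removal of a GC trend, alone and with the block, and fits without a limit on low counts that each dropped 1 mouse, for Rian and H19, were added after seeing the data. Python 3.11.15 with numpy 2.4.6, pandas 2.3.3, scipy 1.17.1 and matplotlib 3.10.9 did the rest.

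The members, lists and markers were chosen with earlier results of these data known. Named genes are the members, their cluster neighbours, up to 10 called imprinted and up to 6 called list genes per contrast by adjusted p, and the 5 genes most like each tested member. Depth limits the low genes most, as in the mouse with 21 reads of Meg3.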

Additional observations from a re-analysis of the deposited data

Results flagged for a closer look

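In 32 groups of 5 mice, 8 genes in each of the 4 groups, the gap of the highest or lowest mouse to the next was compared with the group's range. Chance alone flags about 1 in 20 such groups, and 3 stood out. All 3 were mouse 5 of WT LFD, with 0.518 CPM of Meg3 where the other 4 mice were at 0.952 to 1.02 CPM, 0.961 CPM of H19 where the others were at 0.154 to 0.261 CPM, and 0.814 CPM of Cdkn1c where the others were at 1.35 to 1.52 CPM. The 3 values come from 1 library and are not independent of each other.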

How the results depend on the processing

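Of the tested genes, Cdkn1c on the HFD kept its call under every alternative run. The 2 calls on the LFD became 1 with voom, with voom and the pools, with no limit on low counts, with the default limit of edgeR, with only the groups compared and with the GC trend removed. Same-numbered mice did not vary together (median r -0.01 over 30 pairs, 6 of them over 0.1), so the numbers do not pair mice, and with the replicate block, alone or with the GC trend removed, the LFD calls became 0. With the block, adjusted p was 0.0524 for Peg3 and 0.0687 for Cdkn1c on the LFD, and the block with the GC trend removed left 5 of the 9 other imprinted genes called on the HFD. Leaving out each mouse gave 0 to 2 called members and 6 to 10 other imprinted genes on the LFD, 1 to 2 and 6 to 11 on the HFD, Meg3 not counted, and 0 and 0 to 1 between diets in Adn-Lpin1-/- mice. Between those diets voom with the pools called 1 member and 7 other imprinted genes, edgeR with the pools 3 and DESeq2 1 of the latter. Values near 0 changed sign, namely Igf2r on the LFD (main value 0.01), at -0.00875 with the pools in edgeR, -0.00155 with the default limit, -0.0782 with the GC trend removed and -0.0802 with the block besides, Grb10 on the LFD, at 0.0270 with library totals, and Meg3 between diets in Adn-Lpin1-/- mice, at 0.234 and 0.0187 with the pools under voom and edgeR. Leaving out a mouse gave ranges of -0.0395 to 0.0907 for Igf2r and -0.205 to 0.0471 for Grb10 on the LFD, -0.179 to 0.0396 for Meg3 between those diets, and -0.231 to 0.0514 for Grb10 and -0.144 to 0.183 for Peg3 in the interaction. In the fits without a limit on low counts, it gave -0.340 to 0.421 for Rian on the LFD, and -0.0369 to 0.826 on the HFD and -0.652 to 0.464 in the interaction for H19. Library totals without TMM moved the median of all genes to 0.10 (LFD) and 0.13 (HFD), and with them 1568 of 2151 (LFD) and 2748 of 3178 calls (HFD) were higher, against 818 of 1877 and 1288 of 2434 with TMM. With the GC trend removed it was 597 of 2014 and 831 of 2456. With the pools, 3008 to 4163 genes were called on the LFD, 3760 to 4740 on the HFD and 958 to 2342 between diets in Adn-Lpin1-/- mice, where DESeq2 called 577 and a fit of only those groups 161. Between diets in WT, 144 genes were called, against 400 by DESeq2, 670 by voom, 687 and 1938 with the pools in edgeR and voom, 72 with only those groups, 90 with the block and 93 with the GC trend removed besides. Leaving out a mouse gave 55 to 289 calls there and 1210 to 1959, 1475 to 2756 and 123 to 378 in the other contrasts named. The causes of these changes were not tested.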
